A study of Mus musculus with 3 samples.

Results

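Binding of TBX5, a transcription factor of the T-box family that the heart needs to form, was examined at the genes of cyclic nucleotide and adrenergic signalling in E14.5 hearts of the outbred mouse stock CD-1. The members were the protein-coding RefSeq genes on chromosomes 1 to 19 whose symbols begin with Adra, Adrb, Gucy, Prkar, Prkac, Prkg or Akap, or with Adcy or Pde followed by a digit. This gave 73 genes of 20665. Chromatin of 2 replicates was precipitated with 5 ug of an anti-TBX5 antibody and sequenced, and 1 input sample of unprecipitated heart chromatin was the reference. The hearts were dissected from embryos, so their cell types were mixed, and the labels name no genetic change or treatment in either group. The labels do not say how many embryos a replicate held or whether replicates came from separate litters. The authors called peaks once on the pooled ChIP samples. No value per replicate exists in the lists used here, so the spread between replicates could not be computed and no difference below was tested against it.

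Noradrenaline and adrenaline act on adrenergic receptors. Beta receptors stimulate adenylyl cyclases, which make cyclic AMP, and in heart muscle cyclic AMP raises the rate and force of beating mainly through protein kinase A. Anchoring proteins of the AKAP family hold the kinase near its substrates, phosphodiesterases of the Pde families break cyclic nucleotides down, and guanylyl cyclases make cyclic GMP, which acts through its own kinases.

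The deposited list held 12436 peaks, with a median fold enrichment of 5.67 over background, and 12284 of them lay on chromosomes 1 to 19. The fold of each peak is the authors' value, the pooled ChIP signal at the summit, where the signal of a peak is highest, over the local background. Intervals beside a fold are exact 95% Poisson intervals of the pooled fragment count at the summit. They cover the counting error of that count only, with the background held fixed. A gene was called bound where at least 1 summit fell inside its body extended by 10 kb on both sides. A summit near a gene is a position and does not show that TBX5 regulates the gene. As a check of the tissue label, 10 of 10 heart muscle marker genes were bound. The counts were 2 of 10 liver, 2 of 8 blood, 2 of 6 endothelial and 2 of 6 neuronal markers. The strongest folds of the heart muscle markers ran from 2.86 (Myom1) to 62.2 (Myl2), with Tnnt2 at 16.7. Those of the bound markers of the other lists ran from 4.01 (Spi1) to 27.3 (Pecam1, endothelial). The folds thus overlap, and only the counts differ between the lists. The Spi1 peak lay 3058 bp outside its body and inside the body of Mybpc3, a heart muscle gene, so it need not belong to Spi1. Of the heart muscle markers, Myl7 (3473 bp) and Myom1 (1460 bp) had their nearest summit farthest outside the body. All genes of like length give 3.85 for the heart muscle list, 2.80 for liver, 2.20 for blood, 2.60 for endothelium and 3.04 for neurons.

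Of the 73 members 35 were bound (47.9%, exact binomial 95% interval 36.1 to 60.0), against 30.9% of all protein-coding genes of these chromosomes. Members are long genes, with a median length of 83.4 kb against 17.5 kb over all genes, and long genes hold more summits. From the shares of all genes in 10 equal groups by length, 33.5 bound members would be counted (45.9%), close to the 35 found. Among the 27 members of the longest group, over 109 kb, 20 were bound (74.1%, 53.7 to 88.9, against 65.4% of all genes of that group). Among the 14 of the next group, from 57.9 kb, 5 were bound (35.7%, 12.8 to 64.9, against 47.3%). The 32 shorter members had 10 bound (31.2%, 16.1 to 50.0, against 24.5%). In this window, binding of the set as a whole was thus near that of genes of like length. Other settings, given below, stood farther from it, up to 1.38 times the count from length. With 50 kb on both sides 55 members were bound against 45.4 from length.

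**Figure D1:**
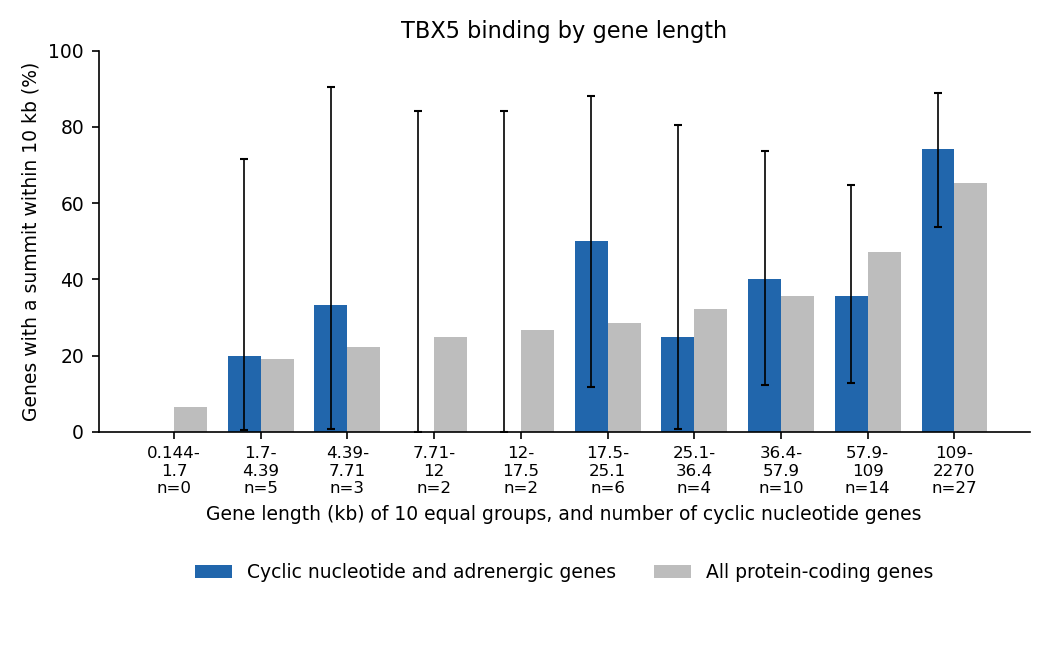
Share of genes with a summit within 10 kb (vertical axis, percent) in 10 equal groups of all protein-coding genes by length (horizontal axis, kb), for the cyclic nucleotide and adrenergic genes (blue, with exact 95% binomial intervals and their number n) and for all genes (grey). The share of all genes rises from group to group and reaches 65.4% in the longest, where that of members is 74.1%; members of the shorter groups are few and their intervals wide.

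The 35 bound members held 95 summits, which is 0.764 per 100 kb of the extended bodies of all 73 members, against 0.799 over all genes. The all-gene value is not matched on length and counts a summit once for every gene window that holds it. Member peaks had a median fold of 6.18 (95% interval of the median 5.74 to 7.06), against 5.67 (5.64 to 5.73) over all peaks. A peak of at least 10-fold stood at 14 members (19.2%, 10.9 to 30.1), against 5.92% of all genes and 9.41 members from length (12.9%, inside that interval). Of these 14, Adcy7 counts through a peak outside its body. When only peaks with −log10 q of at least 10 were used, 26 members were bound against 19 from length, with 14.2% of all genes bound. With peaks of at least the median fold the count was 29 members against 21.0 from length, with 15.4% of all genes bound. At least 5 summits were held by 4 members, against 3.41 from length and 1.54% of all genes.

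**Figure D2:**
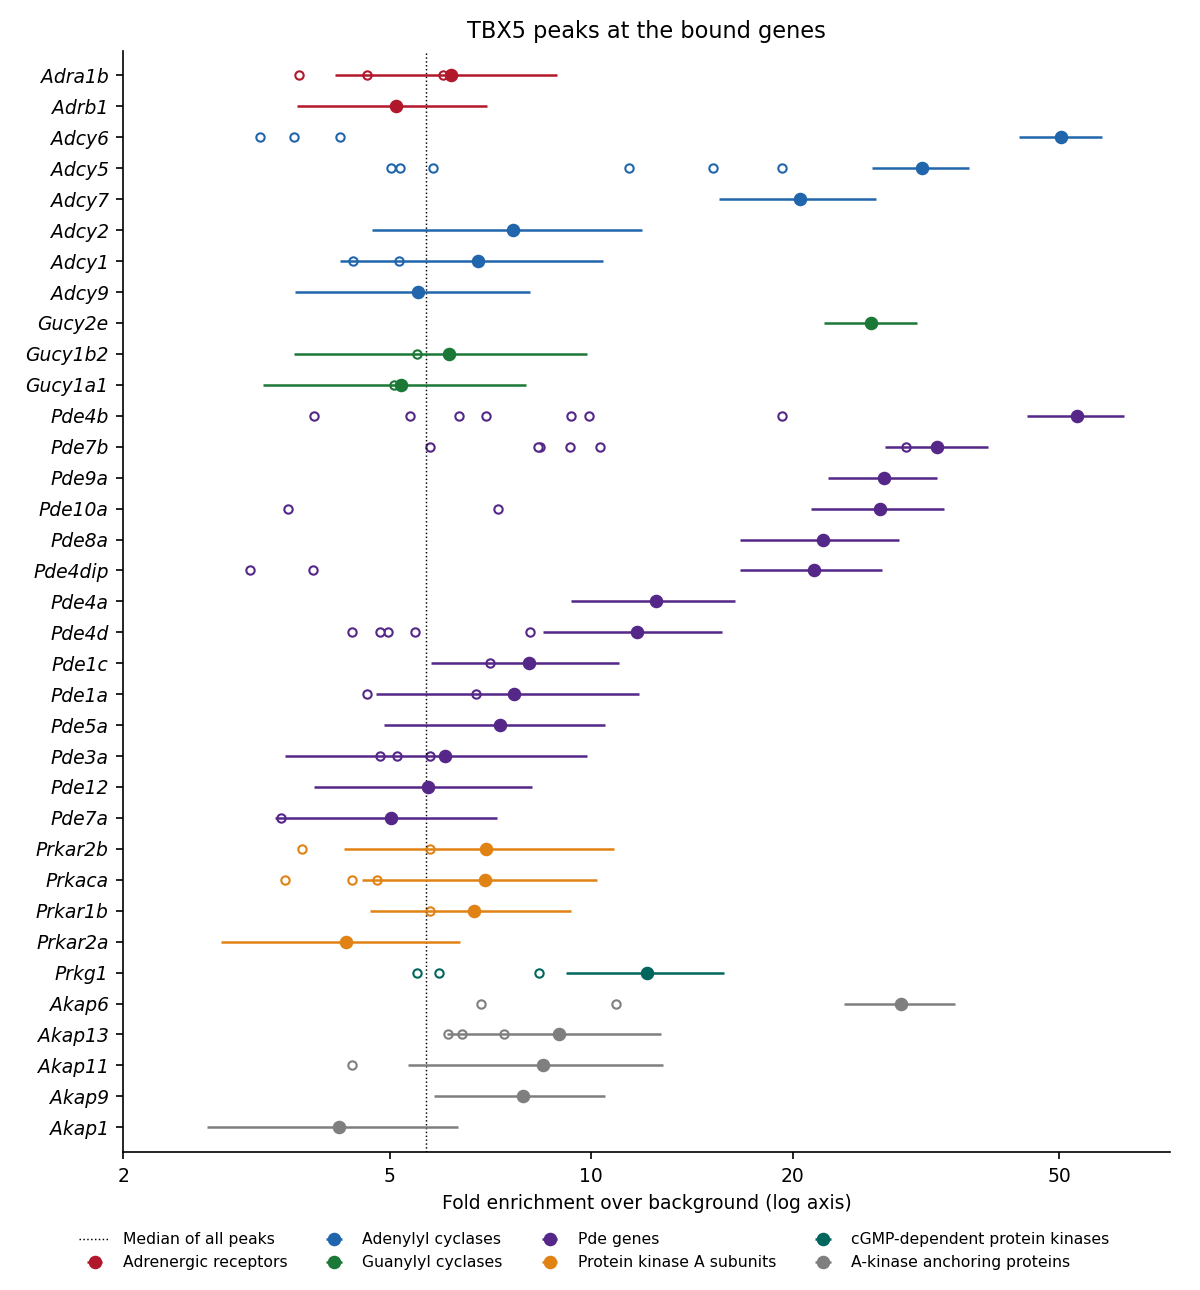
Fold enrichment over background (horizontal axis, log scale) of each of the 95 peaks at the 35 bound members, 1 line per gene, coloured by group; filled points are the strongest peak with its 95% Poisson interval, open points the other peaks, and the dotted line the median of all peaks. Pde4b (53.1-fold) and Adcy6 (50.4-fold) lie farthest right, while the adrenergic receptors and protein kinase A subunits stay below 10-fold.

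Of the 9 adrenergic receptor genes 2 were bound, none above 6.18-fold (22.2%, 2.81 to 60.0, against 2.76 genes from length). Adrb1, the main beta receptor of heart muscle, had 1 peak at its promoter, on chromosome 19 (56721872 to 56722182, mm10). Its 37 fragments gave 5.12-fold enrichment (3.64 to 7.0). Its summit lay 97 bp upstream of the RefSeq start, and the peak was in the authors' active promoter class. Adra1b, an alpha receptor that couples to the calcium-mobilising pathway, had 4 summits in its body, all in the active non-promoter class. Their folds were 6.18, 6.01, 4.63 and 3.66. No summit lay within 10 kb of Adra1a, Adra1d, Adra2a, Adra2b, Adra2c or Adrb3. The nearest was 39889 bp from Adra1a and 29461 bp from Adrb3. For such genes no signal of the pooled call passed the authors' threshold, and weaker binding was not detectable at this depth.

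Summits lay inside the 250 bases upstream of the RefSeq start at Adrb1 and at Akap13, an anchoring protein gene whose peak there reached 6.11-fold (4.21 to 8.59). Those bases are shown because the peak covers 245 of them at Adrb1 and 180 at Akap13. They are RefSeq sequence of GRCm38.p6, plus strand at both genes, at chr19:56721867-56722116 for Adrb1 and chr7:75455284-75455533 for Akap13. Capitals mark GGTGT on either strand, a core of known T-box sites.
Adrb1: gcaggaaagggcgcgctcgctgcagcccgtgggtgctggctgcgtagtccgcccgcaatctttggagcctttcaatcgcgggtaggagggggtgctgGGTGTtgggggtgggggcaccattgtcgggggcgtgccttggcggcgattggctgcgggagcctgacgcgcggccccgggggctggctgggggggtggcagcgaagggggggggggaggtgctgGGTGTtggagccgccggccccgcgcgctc
Akap13: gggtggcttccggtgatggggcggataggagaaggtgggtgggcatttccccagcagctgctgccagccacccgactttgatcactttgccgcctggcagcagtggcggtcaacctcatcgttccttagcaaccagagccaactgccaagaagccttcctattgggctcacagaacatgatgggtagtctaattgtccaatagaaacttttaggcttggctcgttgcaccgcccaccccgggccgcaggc
The Adrb1 sequence held GGTGT at 153 and 29 bases before the start, and the Akap13 sequence held none. The longer T-box site AGGTGT and the GATA site AGATAA, searched on both strands, were in neither. GGTGT, a core chosen after the sequences were seen, was in 35.0% of 20085 promoters of this length (38.8% of 103 member promoters). AGGTGT, which contains it, was in 11.2% (15.5% of member promoters), and AGATAA was in 8.72% (9.71%). A match is only a run of letters, and no match says that these letters are not in this window.

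Adenylyl cyclase genes had 6 of 10 members bound (60.0%, 26.2 to 87.8, against 5.12 from length) and 3 of them at more than 10-fold. Adcy6, one of the main cyclases of heart muscle cells, had 4 summits within 6.63 kb. The strongest, at 98607268 to 98607892 on chromosome 15, reached 50.4-fold (43.6 to 57.9) from 195 fragments and lay 1 bp from its assigned start, which is the transcription start given for each peak in the authors' annotation. By fold it ranked 35 among all 12436 peaks, and it was the highest of the 3006 promoter-class peaks of chromosomes 1 to 19. Its other 3 summits reached 4.22-fold, 3.60-fold and 3.20-fold. The 2 higher of these were also promoter-class peaks.

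Adcy5, the other main cyclase of heart muscle cells, had 7 summits over 110 kb, most of them away from a promoter. The strongest, on chromosome 16 from 35215070 to 35215710, had 31.2-fold enrichment (26.3 to 36.7) and lay 59768 bp from its assigned start, inside the gene body. Further body peaks stood at 19.3-fold (15.6 to 23.7), 15.2-fold (11.8 to 19.3), 5.80-fold and 5.18-fold, and a poised peak of 11.4-fold lay 8082 bp outside the body. The promoter-class peak was the lowest of the 7, at 5.02-fold (3.37 to 7.23), and was in the bivalent class. The pattern thus ran opposite to that of Adcy6, where the promoter peak was the strong one.

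Adcy7 was called bound through 1 peak of 20.5-fold (15.5 to 26.6) at 88334254 to 88334711 on chromosome 8, which lay 4534 bp outside its body and 40295 bp from its own RefSeq start. The same summit lay in the window of Brd7, a chromatin reader gene, and was promoter-class for another start 988 bp away, so it need not belong to Adcy7. Adcy2 (7.65-fold, 1 summit), Adcy1 (6.77-fold, 3 summits) and Adcy9 (5.52-fold, 1 summit) had weaker peaks. No summit lay within 10 kb of Adcy3, Adcy4, Adcy8 or Adcy10. For Adcy8, a calmodulin-stimulated cyclase, the nearest was 464511 bp away, the largest distance of any member.

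Of the 8 guanylyl cyclase genes 3 were bound (37.5%, 8.52 to 75.5, against 3.31 from length). Gucy1a1 encodes a subunit of the soluble cyclase that senses nitric oxide, and it had 2 active summits 601 bp apart, at 5.20-fold and 5.08-fold. Gucy1b1, the neighbouring gene for the partner subunit, had none within 10 kb, and the nearest was the 5.20-fold Gucy1a1 peak, 37408 bp away. The strongest peak of the group stood in Gucy2e, a membrane cyclase known from the retina, on chromosome 11 from 69221050 to 69221476, and reached 26.2-fold (22.3 to 30.7). It lay in the gene body, 15754 bp from the RefSeq start, in the active non-promoter class and in no other protein-coding gene's window. Gucy1b2 had 2 summits of 6.14-fold and 5.49-fold, and Gucy1a2, Gucy2c, Gucy2d and Gucy2g had none.

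The Pde genes were the largest group, with 14 of 26 bound (53.8%, 33.4 to 73.4, against 13.2 from length) and 8 at 10-fold or more. Those specific for cyclic AMP (Pde4, Pde7 and Pde8) had 6 of 8 bound (75%, 34.9 to 96.8, against 4.42 from length) and 25 summits. Those that act on both nucleotides (Pde1, Pde2, Pde3, Pde10 and Pde11) had 4 of 8 bound (50.0%, 15.7 to 84.3, against 4.72 from length) and 12 summits. Both genes for cyclic GMP outside the retina, Pde5a and Pde9a, were bound, whereas none of the 6 Pde6 genes, most of them subunits of the photoreceptor enzyme, was (against 2.02 from length; 0 of 6 has an upper limit of 45.9%). These classes were set with the values known, and the differences between them were not tested.

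Pde4b had the most summits of any member, 8 over 311 kb of its body. The strongest, at 102176053 to 102176460 on chromosome 4, reached 53.1-fold (44.8 to 62.5) from 144 fragments, the highest fold of all members and rank 29 of the whole list. It was in the poised class, whose peaks carry H3K4me1 without H3K27ac, and lay 78488 bp from its assigned start. A second peak, in the active class, stood 1154 bp away with 19.3-fold (14.6 to 25.0). The others were between 3.85-fold and 9.94-fold, with 1 promoter-class peak of 6.97-fold among them.

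Pde7b had 7 summits, none of them promoter-class. Its strongest peaks were 32.9-fold (27.5 to 39.2) at 20459142 to 20459521 and 29.5-fold (24.4 to 35.5) at 20486670 to 20487335 on chromosome 10, both active and in the gene body. These intervals overlap, so counting error alone does not separate the 2 peaks. The remaining 5 ranged between 5.75-fold and 10.3-fold, and 3 of the 7 summits overlapped TBX3 regions.

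Pde4d, a long gene of 1301793 bp, had 6 summits, all in the part of the body away from its RefSeq start and within 295 kb of each other. The strongest was promoter-class, 98 bp from a start in the authors' annotation, on chromosome 13 from 109686071 to 109686421, and reached 11.7-fold (8.46 to 15.7). The start of Pde4d in the RefSeq table lay 1032077 bp from it. The other 5 ranged between 4.39-fold and 8.10-fold. Pde4a had 1 active peak of 12.5-fold (9.32 to 16.4) 3081 bp from its start.

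**Figure D3:**
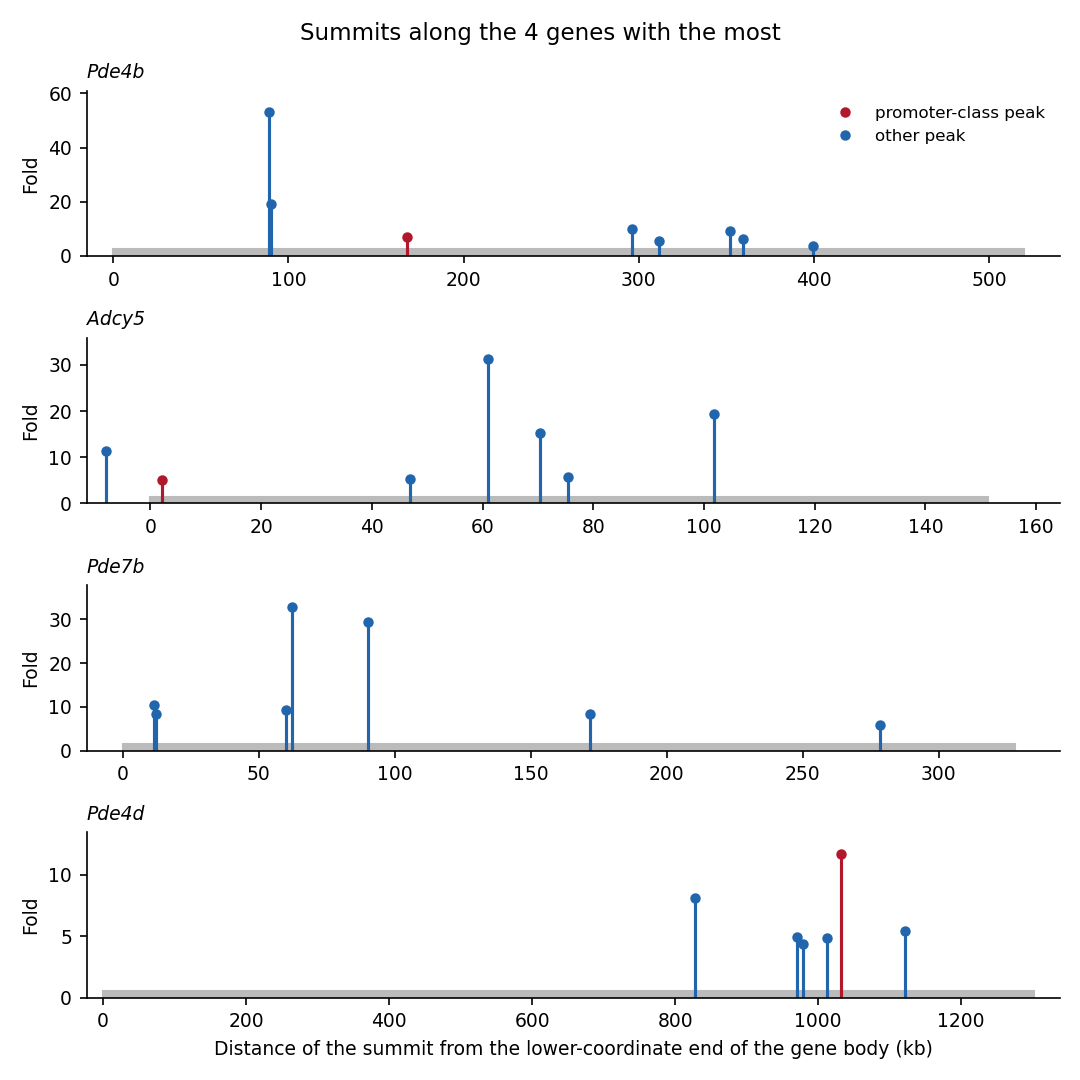
Fold enrichment (vertical axis) of each summit against its distance from the lower-coordinate end of the gene body (horizontal axis, kb) for the 4 members with at least 5 summits; grey bars are gene bodies, red marks promoter-class and blue other peaks. The strongest peak of Pde4b, Adcy5 and Pde7b is a non-promoter peak, and that of Pde4d is promoter-class.

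Several further Pde genes had a single strong peak. Pde9a, which acts on cyclic GMP, had 1 active peak of 27.4-fold (22.6 to 32.9) at 31420030 to 31420532 on chromosome 17. Pde10a, best known from the striatum of the brain, had 27-fold (21.3 to 33.7) at 8556213 to 8556666 on the same chromosome, beside peaks of 7.25-fold and 3.53-fold. Pde8a, a high-affinity enzyme for cyclic AMP, had 1 poised peak of 22.2-fold (16.7 to 28.8) that overlapped a TBX3 region. Pde4dip encodes myomegalin, a scaffold that binds a Pde4 enzyme and is no phosphodiesterase itself. Its strongest peak was promoter-class with 21.5-fold (16.7 to 27.2), 1760 bp from an assigned start.

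Of the remaining Pde genes, Pde3a, the enzyme inhibited by milrinone, had 4 non-promoter summits of 6.04-fold, 5.75-fold, 5.13-fold and 4.83-fold, 3 of them active. Pde5a, the target of sildenafil, had 1 poised peak of 7.32-fold (4.91 to 10.5). Pde1c, a calmodulin-dependent enzyme, had 2 summits, of 8.07-fold and 7.06-fold, and Pde1a had 3, the strongest 7.67-fold. Pde7a reached 5.02-fold, and Pde12, which acts on RNA rather than cyclic nucleotides, 5.71-fold at its promoter. Pde2a, stimulated by cyclic GMP, had no summit in the window, and the nearest, of 6.54-fold, lay 15492 bp away. Pde1b, Pde3b, Pde4c, Pde8b and Pde11a had none either.

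Protein kinase A subunit genes had 4 of 6 members bound (66.7%, 22.3 to 95.7, against 2.64 from length), none above 6.96-fold. Prkaca, the main catalytic subunit, had 4 summits, of 6.95-fold, 4.78-fold, 4.39-fold and 3.49-fold. The 6.95-fold peak lay in the body at 83980236 to 83980514 on chromosome 8, and the other 3 were promoter-class. Of these, the 3.49-fold peak lay 353 bp upstream of the RefSeq start of Prkaca and also in the window of Asf1b. The 4.78-fold and 4.39-fold peaks also lay in the windows of Samd1 and 1700067K01Rik. Among the regulatory subunits Prkar2b (6.96-fold, 3 summits), Prkar1b (6.69-fold, 2 summits) and Prkar2a (4.31-fold, 1 summit at the promoter) were bound. The 6.69-fold peak of Prkar1b also lay in the window of Dnaaf5, and the Prkar2a peak in that of Slc25a20. The promoter-class peak of Prkar2b lay near the start of Hbp1, 8986 bp outside the Prkar2b body. Prkar1a, the regulatory subunit mutated in the human Carney complex, had no summit within 10 kb, and neither had the catalytic subunit gene Prkacb. The nearest summit to Prkar1a lay 19646 bp away, with a stronger peak of 19.9-fold (15.8 to 24.8) at 26058 bp.

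Prkg1, the cyclic GMP-dependent kinase of smooth muscle and heart, had 4 summits over 922 kb. The strongest was 12.1-fold (9.17 to 15.8) at 31698987 to 31699256 on chromosome 19, active and shared with a TBX3 region. Upstream of its RefSeq start, by 347 bp, lay a promoter peak of 8.37-fold (5.58 to 12.1). A further promoter-class peak of 5.92-fold belonged by distance to Cstf2t, a gene inside the Prkg1 body whose start lay 101 bp away. Prkg2 had none, with the nearest at 202342 bp.

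Of the 12 genes for A-kinase anchoring proteins 5 were bound (41.7%, 15.2 to 72.3, against 5.38 from length). Akap6, which anchors protein kinase A at the nuclear envelope of heart muscle cells, stood apart in strength with 29.0-fold (23.9 to 34.9) at 52799472 to 52800084 on chromosome 12. Its further summits of 10.9-fold (7.92 to 14.7) and 6.84-fold (4.69 to 9.67) lay 2368 bp from each other, and all 3 were active and in the gene body. Akap13, which anchors protein kinase A in heart muscle cells, had 4 active summits of 8.96-fold, 7.42-fold, 6.41-fold and 6.11-fold. Akap11 had 8.46-fold in its body and 4.40-fold 10 bp from its start.

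Akap9, the anchor at the slow potassium channel, had a promoter peak of 7.91-fold (5.83 to 10.5) that overlapped a TBX3 region. Akap1, the mitochondrial anchor, had a non-promoter peak of 4.20-fold (2.67 to 6.32), 9851 bp from its start. No summit lay within 10 kb of Akap3, Akap5, Akap7, Akap8, Akap8l, Akap10 or Akap12. Akap7, an anchor at the L-type calcium channel, was just outside the window, with a 3.63-fold peak (2.23 to 5.62) at 11655 bp, and Akap12 and Akap5 had their nearest at 27585 and 35012 bp. On the inner side of the 10 kb limit lay the outermost summits of Prkar2b (8986 bp) and Adcy5 (8082 bp).

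Peaks of the members carried annotations at shares near those of all peaks. The promoter class, within 2000 bp of a start, held 25 of 95 (26.3%, 17.8 to 36.4, against 24.5%). The active classes held 71 (74.7%, 64.8 to 83.1, against 73.6%), and TBX3 regions overlapped 26 (27.4%, 18.7 to 37.5, against 27.2%). Active enhancers carry H3K4me1 and H3K27ac, which marked 81.1% (71.7 to 88.4) and 76.8% (67.1 to 84.9) of member peaks, against 72.8% and 73.6% of all peaks. TBX3 overlap was 44.0% (24.4 to 65.1) among the 25 promoter-class peaks and 21.4% (12.5 to 32.9) among the other 70, against 45.5% and 21.3% of all such peaks.

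H3K27me3, a mark of Polycomb repression, was on 5 member peaks (5.26%, 1.73 to 11.9, against 1.62% of all peaks). They lay at 4 genes, of which 3 were adenylyl cyclases. These were Adcy1, with 2 such peaks 7116 and 4431 bp upstream of its start, Adcy5 and Adcy9 at promoter-class peaks, and Pde10a at its 3.53-fold promoter-class peak. None of these 5 peaks exceeded 6.77-fold.

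The 25 promoter-class peaks of members had a median of 5.12-fold (4.39 to 6.69) and their other 70 peaks one of 6.81-fold (5.80 to 7.67), and these intervals overlap. Over all peaks the medians were 4.39-fold and 6.20-fold. At least 10-fold was reached by 21 member peaks (22.1%, 14.2 to 31.8, against 16.6% of all peaks), and 4 of these were promoter-class (19%, 5.45 to 41.9, against 7% of all such peaks). The 4 were those of Adcy6, Pde4dip, Adcy7 and Pde4d. A promoter-class summit within 2000 bp of a member's own start in the RefSeq promoter table was found for 11 members. Adcy6 and Pde7a are not among these, since the table used here has no entry for them.

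**Figure D4:**
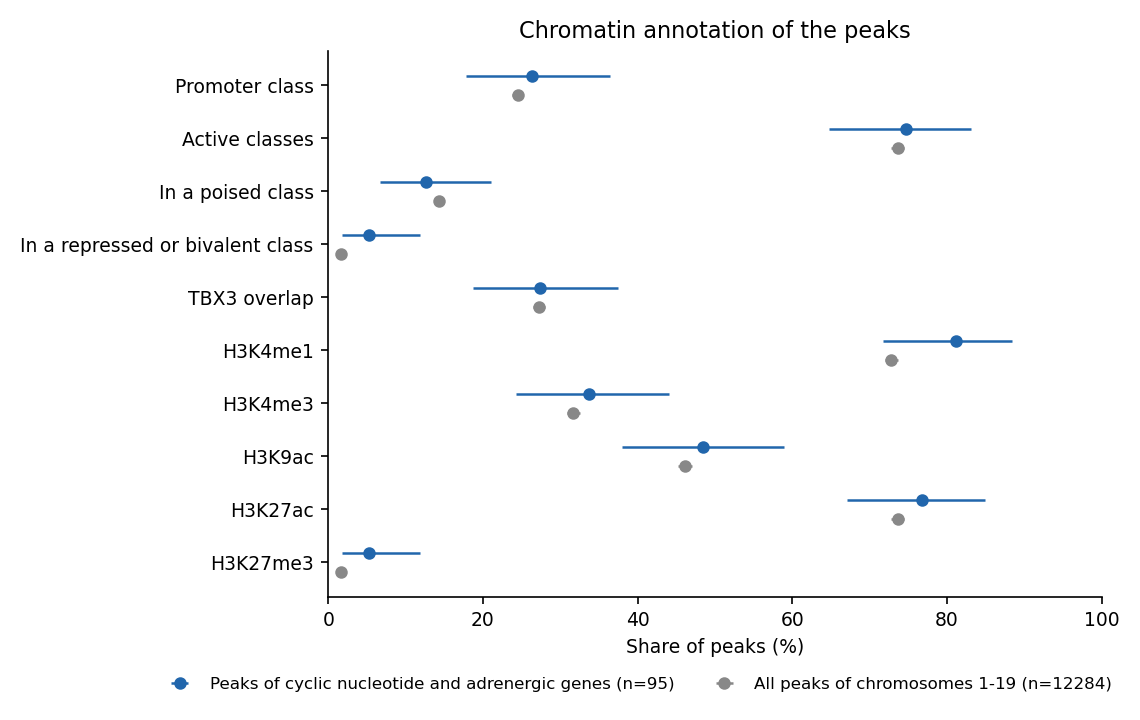
Share of peaks (horizontal axis, percent) with each of the authors' annotations, for the 95 peaks of the cyclic nucleotide and adrenergic genes (blue) and all 12284 peaks of chromosomes 1 to 19 (grey), with exact 95% binomial intervals. The blue interval spans the grey point for each property except the repressed or bivalent classes and H3K27me3, where 5 member peaks give 5.26% against 1.63% and 1.62%.

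Most member peaks could be assigned without overlap. No peak was counted for more than 1 member, and 86 of the 95 lay in the window of no other protein-coding gene. The gene body held 85 of them, in 33 members. Exons and introns are not given in the gene table used here. By distance to the authors' assigned start 30 peaks (31.6%, 22.4 to 41.9) lay at 10 to 50 kb, against 32.1% of all peaks. At 50 to 100 kb there were 20 (21.1%, 13.4 to 30.6), against 13.3%, and over 100 kb 7 (7.37%, 3.01 to 14.6), against 15.6%. Member peaks lie by rule within 10 kb of a gene body, whereas all peaks include those in no protein-coding gene's window. These distance shares are not matched on gene length either, so they describe no trait of the members.

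Other windows gave other counts. Without extension of the body 33 members held a summit, against 19.8% of all genes and 27.3 members from length. Counting any base of a peak in the extended body gave 35, against 31.0% of all genes and 33.6 from length. With 50 kb on both sides 55 did, against 51.3% of all genes and 45.4 from length.

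The wider window added strong peaks at several genes. Between 10 and 50 kb from the body, 36 members had a summit, 20 of which had none nearer. Pde4d had a 30.2-fold peak (23.8 to 37.8) 40339 bp outside its body, at 109996128 to 109996524 on chromosome 13, stronger than any within it. Adrb1 had an 18.1-fold peak (14.2 to 22.7) at 49721 bp, at 56774697 to 56775031 on chromosome 19, against 5.12-fold at its promoter. Akap13 had 18-fold (13.6 to 23.3) at 24769 bp. These 3 peaks and the Prkar1a peak lay within 10 kb of no other protein-coding gene. The Adrb1 and Prkar1a peaks lay nearer to the authors' assigned start than to the gene body, and need not belong to these genes. The Pde4d and Akap13 peaks did not lie nearer to the assigned start.

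The rest of the pathway was listed as 117 genes outside the families above. Of these 73 were bound (62.4%, 53.0 to 71.2), against 45.9 genes from length and 30.9% of all genes. The list was assembled with earlier results of these data known and includes genes known as TBX5 targets, so its share is not independent evidence. Substrates of protein kinase A in heart muscle had 10 of 11 bound (4.20 from length), with Cacna1c, Ryr2, Cacnb2 (16.5-fold) and Tnni3 (15.2-fold) at 15-fold or more. The Tnni3 peak lay 8186 bp outside the gene body and need not belong to it. The unbound member was Ppp1r1a. Cacna1c, the L-type calcium channel, held 16 summits and Camk2d, a calcium-dependent kinase, 10, while Rgs6, Creb3l2 and Kcnq1 held 8 each.

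Other effectors of cyclic AMP had 7 of 9 bound (3.45 from length). Rapgef4, an exchange factor that cyclic AMP activates directly, reached 45.3-fold (38.2 to 53.2) with 5 summits. Popdc2, a cyclic AMP-binding membrane protein, had 15-fold (11.7 to 19) at 59 bp from its body. Among guanine nucleotide-binding proteins 12 of 18 were bound (8.06 from length), with the inhibitory subunit Gnai2 at 31.4-fold (26.6 to 36.9) and Gnaq at 15.1-fold. Gnas, the stimulatory subunit, reached 5.03-fold.

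Kinases, arrestins and RGS proteins that dampen receptor signals had 8 of 13 bound (5.64 from length), led by Rgs3 (36.1-fold, 29.5 to 43.7), Grk3 (34.0-fold, 28.2 to 40.7) and Grk6 (15.9-fold). Grk2, the best-studied kinase of beta receptors, had no summit. Inhibitors of protein kinase A and CREB factors had 8 of 11 bound (5.26 from length), with Pkig at 28.6-fold (24.3 to 33.6) and Creb3l2 at 21.2-fold. Phosphatases and scaffolds had 8 of 11 (4.35 from length), and nitric oxide synthases and effectors of cyclic GMP 5 of 9 (3.88 from length).

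Other receptors that act on adenylyl cyclase had 7 of 20 bound (6.62 from length). Chrm2, the muscarinic receptor that opposes beta stimulation in the heart, had 6 summits and 16.1-fold (12.7 to 20.2), and Adora3, an adenosine receptor, 20.1-fold, 5354 bp outside its body. Natriuretic peptides and their receptors had 4 of 7 (2.00 from length), with Corin, the protease that activates atrial natriuretic peptide, at 22.3-fold (17.5 to 28.1). Genes of catecholamine synthesis and clearance had 4 of 8 (2.49 from length). Pnmt, which makes adrenaline, had a 24.5-fold peak (19.7 to 30.1) that lay outside its body and need not belong to it.

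**Figure D5:**
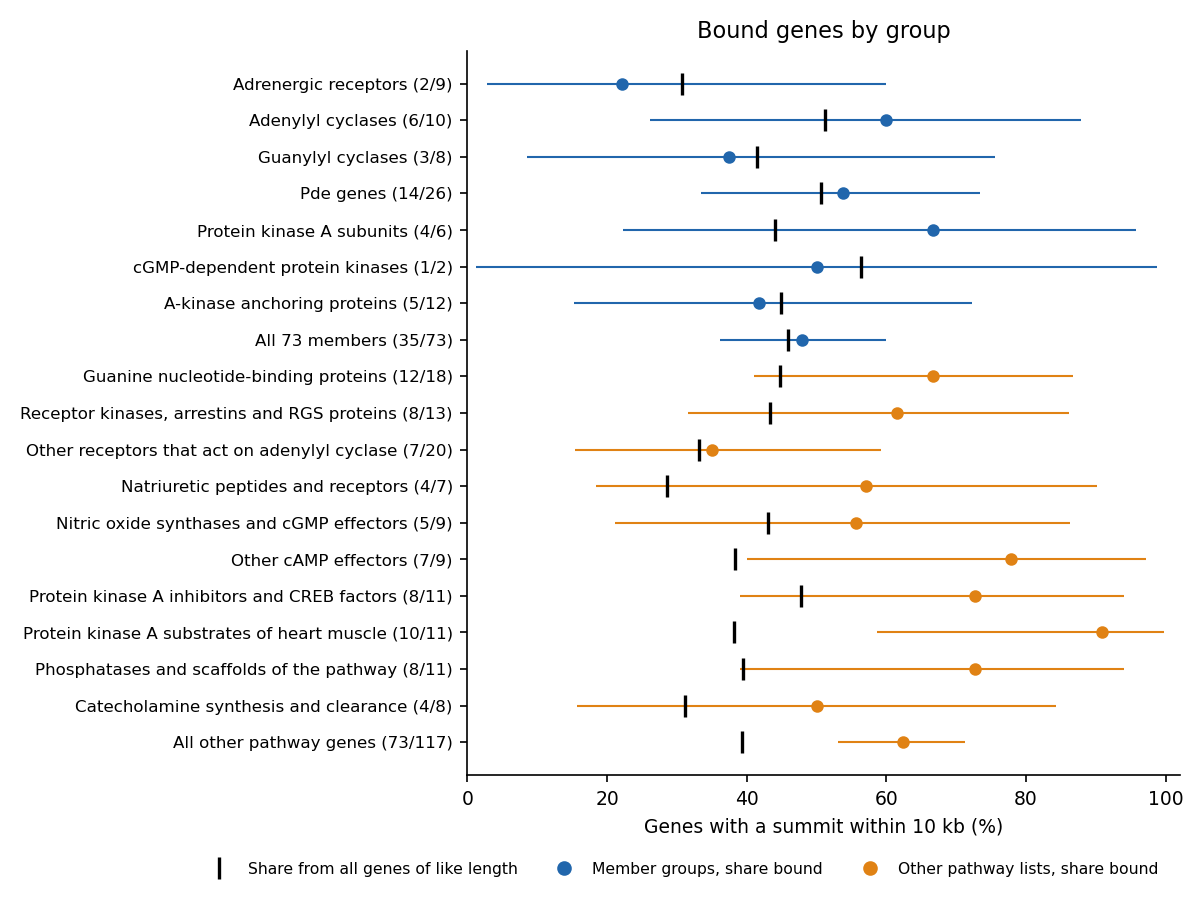
Share of genes with a summit within 10 kb (horizontal axis, percent) for the groups of members (blue) and lists of other pathway genes (orange), with exact 95% binomial intervals and the number bound of all in brackets; black bars give the share from all genes of like length. The members as a whole lie at 47.9% against 45.9%, and the other pathway genes at 62.4% against 39.3%.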

How the data were processed

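TBX5 ChIP-seq of E14.5 hearts (fragments of 200 to 650 bp, single ends of 50 bases, per the labels) was processed by the authors with Bowtie2, SAMtools, MACS2 and ChIPseeker on mm10, per the submitters' processing notes; the sources used here give no settings. Peaks were called on pooled samples, per the file headers and names. Fold is the authors' deposited ratio at the summit. The deposited −log10 p and −log10 q and the deposited score (10 times −log10 q, truncated) belong to the same call. The authors' deposited table adds the distance to a start (its own numeric score), promoter class, histone mark, chromatin class and TBX3 overlap; a mark with a pair of region files counted if either had it. The sources used here do not name the tissue or stage of those regions.

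Read depth per sample is not given there either. Pileup and background were solved from fold and −log10 p, the deposited p-value, with a whole-number pileup matching within 0.0005 for all 12436 peaks. Positions are 1-based. RefSeq gene bodies and promoters belong to GRCm38.p6, the assembly of mm10; 57 of 73 members were in the promoter table. The length comparison sums, over members, the share of bound genes in their length group and is no test; binomial intervals treat genes and peaks as independent. Scripts were tested on simulated data. Named were members with a peak of at least 10-fold, at least 5 summits or the highest fold of their family, those best known in heart, and other pathway genes of at least 15-fold or with the most summits; further names were chosen after values were seen. A few genes that this rule names are not reported here. Members and lists were chosen with earlier results of these data known. Alternatives changed the window, peak threshold, peak class, overlap, assignment, length groups and member list. Tables were computed in Python 3.11.15 with pandas 2.3.3 and numpy 2.4.6, intervals with scipy 1.17.1, and figures with matplotlib 3.10.9.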

Additional observations from a re-analysis of the deposited data

How the results depend on the processing

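No paired analysis was possible because the peaks were called on pooled samples, and for the same reason no replicate could be left out. The count of 35 bound members became 55 with the body extended by 50 kb (45.4 from length) and 19 with promoter-class peaks only (15.4 from length), and ranged between 26 and 38 otherwise. From length, 33.5 bound members were counted, and 19 where −log10 q had to reach 10 or 21.0 where the fold had to reach the median. Members bound stood between 1.04 and 1.38 times the count from length in all 10 settings, 1 of which, summits in the window of a single gene, was chosen after seeing the data (33 against 26.7). The median fold of member peaks, 6.18, was 9.13 with −log10 q of at least 10, 8.10 with peaks of at least the median fold and 5.12 with promoter-class peaks only. With promoter-class peaks only the TBX3 share was 44.0% and the active share 88.0%. Other pathway genes bound, 73 of 117 in the main setting, numbered 43 with promoter-class peaks only, where 17.9% of all genes were bound. With non-promoter peaks only they numbered 48, where 18.1% of all genes were bound. These all-gene shares are not matched on gene length. Leaving out Pde12 gave 34 bound members, and Pde12 with Pde4dip 33. The strongest fold differed for 7 members at 50 kb and for 1 without extension (Adcy1, 5.17-fold). Adcy7 and Adrb1, whose only peaks lie outside the body, were no longer bound without extension. A median summit held 22 fragments, and the effect of depth was not tested.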
